A study of Homo sapiens with 4 samples.

Results

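The beta-catenin destruction complex was examined at the transcript level in HCT116 cells after silencing of CTNNB1, the gene for beta-catenin. The 10 genes chosen by name were the scaffolds APC, AXIN1 and AMER1, the kinases CSNK1A1, GSK3A and GSK3B, the F-box receptors BTRC and FBXW11, and the tankyrases TNKS and TNKS2. A gene was measured where a transcript cluster, the array's unit of probes for 1 transcribed locus, carried its symbol and no other. This held for 9 of the 10, each with 1 cluster, among 22411 genes in all. AMER1, which tethers APC to the plasma membrane, was annotated only on a cluster with several symbols and was not analysed here.

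In the absence of Wnt ligand, the complex marks beta-catenin for destruction. APC and axin hold beta-catenin in place, casein kinase 1 alpha primes it by phosphorylation, and GSK3 phosphorylates it further. The phosphorylated protein is bound by a beta-TrCP F-box protein, ubiquitinated by the SCF ligase and degraded by the proteasome. Tankyrases modify axin by poly-ADP-ribosylation, which leads to its own breakdown and so limits the complex. In colorectal tumours the route is usually broken, most often through APC.

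HCT116 is an established human colon cancer cell line with wild-type APC and a beta-catenin allele that lacks the serine phosphorylated by casein kinase 1 alpha. All cells were transfected with 50 nM siRNA and collected after 48 h, either with an siRNA to CTNNB1 (2 arrays) or with a control siRNA (2 arrays). The labels call the 2 samples of each group biological replicates without saying whether they were separate cultures, so p-values measure the spread between these samples, which may be technical. The sources used here do not give the siRNA sequences or how many were used.

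Total RNA was hybridised to Affymetrix whole-transcript arrays, and the deposited values are log2 levels. CTNNB1 itself had levels of 6.50 and 6.65 log2 units on the CTNNB1 siRNA arrays, against 10.06 and 10.20 on the control siRNA arrays, 11.8-fold lower (adjusted p 0.000134 in limma), so the labels match the targeted gene. The epithelial markers EPCAM, KRT8, KRT18, KRT19 and CDH1 lay above the level filter of 4.29 log2 units, while the intestinal markers VIL1 and CDX2 lay below it. Of 7 leukocyte, fibroblast and endothelial markers with a cluster, 3 lay above the filter, none had an adjusted or unadjusted p under 0.05 in limma, and their levels ran from 2.76 to 5.51. Their summed level was 29.12 to 29.51 with CTNNB1 siRNA and 28.90 to 29.45 with control siRNA. Of the 5 epithelial markers above the filter, 4 rose and KRT19 did not pass the test. CDH1, for the junction protein E-cadherin, had levels of 9.06 and 9.48 with CTNNB1 siRNA, against 6.80 and 7.20 with control siRNA. The summed level of all 7 epithelial markers was 65.38 to 65.84 with CTNNB1 siRNA and 61.42 to 62.26 with control siRNA, and its part in the results below was not tested. In bulk RNA, fewer cells of a kind and less RNA per cell cannot be told apart. Over the tested genes, r between arrays was 0.997 within either group and from 0.977 to 0.980 across groups, which describes similarity, since genes are not independent replicates. The number of arrays limits the precision of every value.

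Destruction complex transcripts moved in both directions after CTNNB1 silencing, by less than a doubling in every case. CSNK1A1, BTRC and TNKS2 rose, GSK3A and FBXW11 fell, and APC, AXIN1, GSK3B and TNKS did not pass the test. In limma with Benjamini-Hochberg adjustment over all tested genes, 3 of the 9 genes were called higher, where 14.2% of 15679 tested genes were, and 2 were called lower, where 16.1% were. In either direction 5 of 9 were called, against a background of 30.3%. The median log2 fold change of the 9 genes was 0.22, and that of all tested genes was -0.015. In 8 of the 9 genes, all but TNKS, the groups were fully separate, as they were in 63% of all tested genes. Levels of different genes are not compared here, because each cluster has its own probes.

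**Figure D1:**
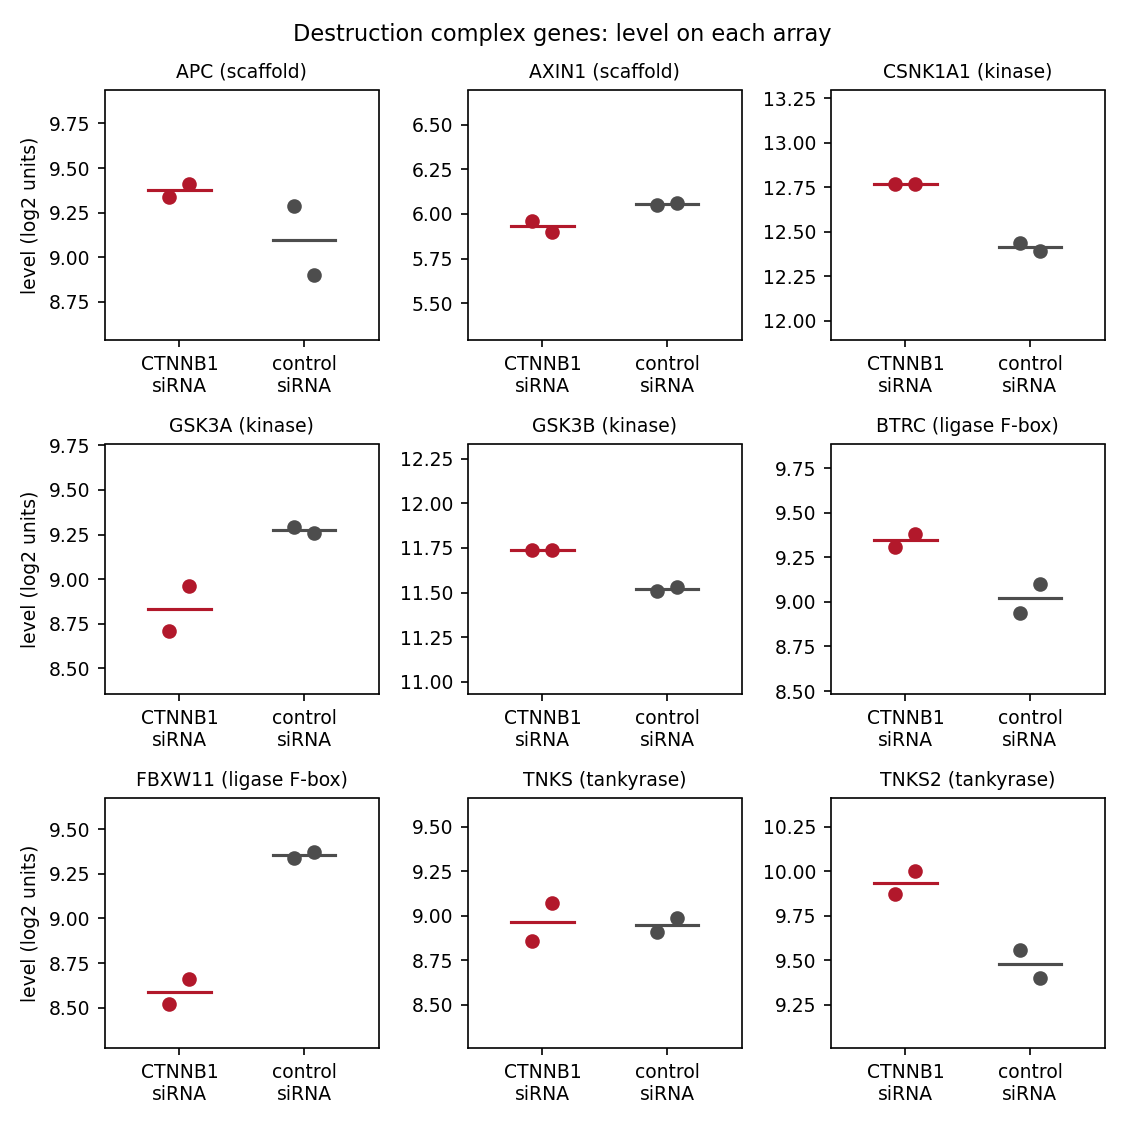
Level of each measured destruction complex gene in log2 units (vertical axes, all spanning 1.4 units) on the 2 CTNNB1 siRNA arrays (left, red) and the 2 control siRNA arrays (right, grey). Points are arrays and lines are group means. The groups overlap for TNKS and lie farthest apart for FBXW11.

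The scaffold genes did not pass the test. APC, whose product is the large scaffold most often lost in colorectal cancer, had levels of 9.34 and 9.41 log2 units with CTNNB1 siRNA, against 9.29 and 8.90 with control siRNA. The groups did not overlap, but the gap between the control arrays was wider than the difference of the group means. The log2 fold change was 0.28 (SE 0.14, 95% interval -0.066 to 0.63, adjusted p 0.201 in limma), and it was 0.085 without control siRNA replicate 2 and 0.48 without control siRNA replicate 1. AXIN1, the axin that is expressed broadly and whose amount is held to limit assembly of the complex, had levels of 5.96 and 5.90 with CTNNB1 siRNA and of 6.05 and 6.06 with control siRNA. Both CTNNB1 siRNA arrays lay below both control arrays. The log2 fold change was -0.13 (SE 0.077, 95% interval -0.32 to 0.065, adjusted p 0.294 in limma).

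Of the kinase genes, CSNK1A1 rose and GSK3A fell. CSNK1A1 encodes casein kinase 1 alpha, which phosphorylates the priming serine of beta-catenin. Its level was 12.77 log2 units on both CTNNB1 siRNA arrays, against 12.44 and 12.39 on the control siRNA arrays. The groups lay well apart, and the rise of 0.36 (SE 0.076, adjusted p 0.0184 in limma) corresponds to a fold of 1.28 on the deposited scale. An array may mix its signal with that of CSNK1A1L, a near-identical retrotransposed copy. The rise was called in limma under each of the 7 other settings that kept all 4 arrays and set no fold minimum, with adjusted p-values from 0.0138 to 0.0418.

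The GSK3 genes encode closely related kinases that both phosphorylate beta-catenin after its priming. GSK3A had levels of 8.71 and 8.96 log2 units with CTNNB1 siRNA, against 9.29 and 9.26 with control siRNA. Both CTNNB1 siRNA arrays were low, but they differed from each other by more than the control arrays did. GSK3A fell by 0.44 on the log2 scale (SE 0.11, adjusted p 0.0269 in limma, a fold of 1.36). Once each array was centred on its median, the adjusted p for GSK3A in limma was 0.0593, so the call ended there. It also ended with the replicate number as a block in the fit (adjusted p 0.0771 in limma). GSK3B stood at 11.74 on both CTNNB1 siRNA arrays, against 11.51 and 11.53 on the control siRNA arrays. Its groups did not overlap and its replicates lay close together, with a log2 fold change of 0.22 (SE 0.075, 95% interval 0.035 to 0.41). The unadjusted p in limma was 0.0276 and the adjusted p 0.0783, short of the threshold.

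The F-box genes held the largest change among the 9. FBXW11 and BTRC encode the beta-TrCP proteins, which recognise the phosphorylated degron of beta-catenin, and also those of the NF-kappaB inhibitor and of several cell cycle regulators. FBXW11 had levels of 8.52 and 8.66 log2 units with CTNNB1 siRNA, against 9.34 and 9.37 with control siRNA. The arrays of either group lay close together and the groups far apart. The fall in FBXW11 was 1.70-fold, with a log2 fold change of -0.77 (SE 0.086, 95% interval from -0.98 up to -0.55, adjusted p 0.00217 in limma). Of all tested genes, 10.2% had a larger absolute log2 fold change than FBXW11. That share was 22.3% for TNKS2, 23.6% for GSK3A, 29.4% for CSNK1A1 and 32.1% for BTRC. FBXW11 was the 1 gene of the 9 that was called with a fold of at least 1.5 in either direction. Of 15679 tested genes, 1287 (8.21%) met that rule on the lower side and 1168 on the higher side.

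BTRC had levels of 9.31 and 9.38 log2 units with CTNNB1 siRNA, against 8.94 and 9.10 with control siRNA. Both CTNNB1 siRNA arrays were higher than both control arrays. BTRC rose by 0.33 (SE 0.091, 95% interval 0.10 to 0.55), with an adjusted p of 0.0441 in limma, which is close to the threshold. The adjusted p of BTRC in limma was 0.0577 without a level filter, 0.0596 with a variance trend and robust moderation, and 0.0748 with arrays centred on their medians, and each of these ended the call. So did the replicate block (adjusted p 0.0536 in limma).

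Of the tankyrase genes, TNKS2 rose and TNKS did not pass the test. TNKS2 had levels of 9.87 and 10 log2 units with CTNNB1 siRNA, against 9.56 and 9.40 with control siRNA. The groups did not overlap, and the rise was 0.46 (SE 0.096, 95% interval 0.22 to 0.69, adjusted p 0.0179 in limma, a fold of 1.37). With the replicate block the TNKS2 call ended (adjusted p 0.0764 in limma). TNKS had levels of 8.86 and 9.07 with CTNNB1 siRNA, against 8.91 and 8.99 with control siRNA. The control values lay between the CTNNB1 siRNA values, and the log2 fold change was 0.015 (SE 0.10, 95% interval -0.23 to 0.26, adjusted p 0.941 in limma). The interval spans 0 and leaves room for a small change in either direction.

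All 5 calls rested on the full set of 4 arrays. With any 1 array left out, limma has 1 residual degree of freedom and called none of the 15679 genes, CTNNB1 included, while between 4732 and 4930 genes had an unadjusted p under 0.05, and 4 of the 9 complex genes did each time. The 5 called genes kept their direction in each such fit, but this was fixed in advance, because their groups did not overlap. FBXW11 lay between -0.84 and -0.70 with adjusted p-values from 0.0553 to 0.0855, GSK3A between -0.57 and -0.32 with 0.0659 to 0.217, and TNKS2 between 0.38 and 0.54 with 0.106 to 0.155. CSNK1A1 lay between 0.33 and 0.38 with adjusted p-values in limma from 0.102 to 0.109, and BTRC between 0.25 and 0.41 with 0.103 to 0.227.

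**Figure D2:**
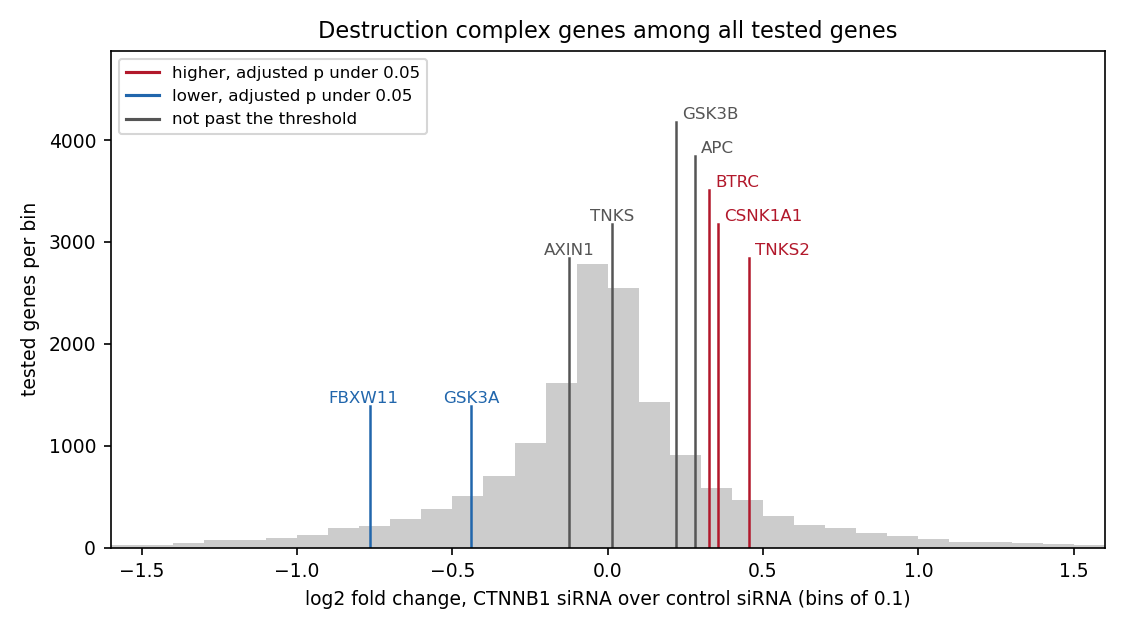
Histogram of the log2 fold changes of 15679 tested genes (grey, bins of 0.1, horizontal axis shown from -1.6 to 1.6), with a line for each measured destruction complex gene. FBXW11 at -0.77 and GSK3A at -0.44 lie left of the bulk, and CSNK1A1, BTRC and TNKS2 lie between 0.33 and 0.46.

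The complex contains pairs of related genes, and the difference between the genes of a pair was taken within each array. It was set between groups with an exact permutation test over the arrays, which cannot go below p = 0.33 with 2 against 2 arrays, and each of the 4 pairs compared had that p. The level of such a difference depends on the probes, so only its change between groups is read. GSK3A minus GSK3B was -3.03 and -2.78 log2 units on the CTNNB1 siRNA arrays, against -2.22 and -2.27 on the control siRNA arrays, a change of -0.66. FBXW11 minus BTRC was -0.79 and -0.72 with CTNNB1 siRNA, against 0.40 and 0.27 with control siRNA, a change of -1.09, or a 2.13-fold shift in the balance of the beta-TrCP transcripts on the deposited scale. The gap between the groups, 0.99, was many times the spread within either group.

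TNKS minus TNKS2 was -1.01 and -0.93 log2 units on the CTNNB1 siRNA arrays, against -0.65 and -0.41 on the control siRNA arrays, a change of -0.44. The groups did not overlap, with a gap of 0.28, close to the spread within the control group. AXIN1 was set against AXIN2, the axin that is itself a transcriptional target of beta-catenin. AXIN2 had levels of 4.48 and 4.47 with CTNNB1 siRNA, against 6.65 and 6.63 with control siRNA, and fell by 2.17 on the log2 scale (SE 0.075, adjusted p 0.000163 in limma). AXIN1 minus AXIN2 was 1.48 and 1.43 with CTNNB1 siRNA and -0.60 and -0.57 with control siRNA, a change of 2.04. It was the widest separation of the 4 pairs. With CTNNB1 siRNA, AXIN2 lay below the array medians of 4.58 to 4.66 and near the leukocyte marker CD3E (4.61 and 4.59 with CTNNB1 siRNA), so its level there may be background and the size of the change is uncertain.

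**Figure D3:**
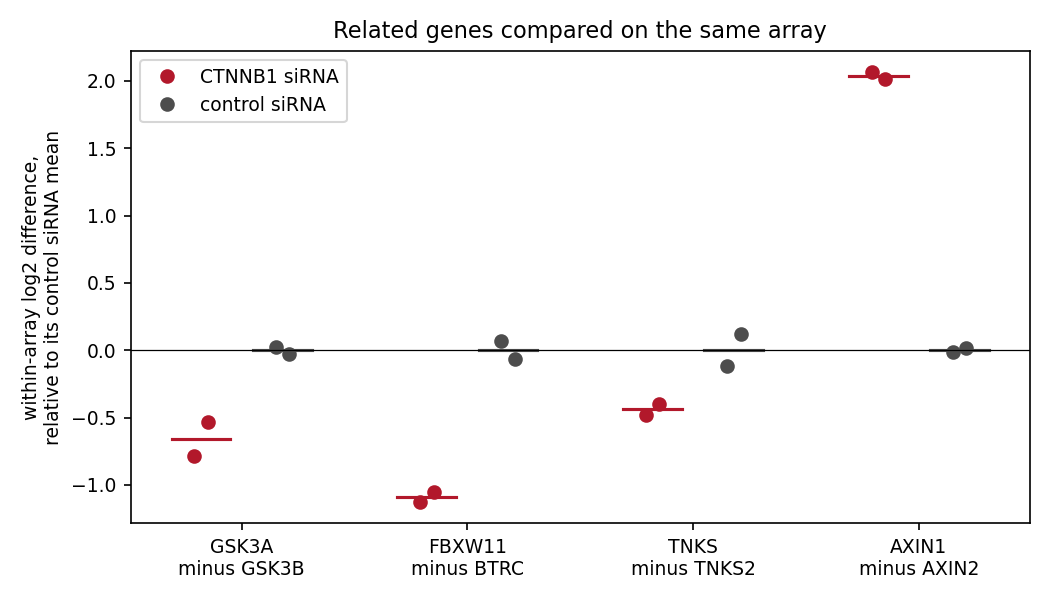
Within-array log2 difference between related genes, relative to its mean on the control siRNA arrays, for the CTNNB1 siRNA arrays (left in each pair, red) and the control siRNA arrays (right, grey). Points are arrays and short lines group means. The CTNNB1 siRNA arrays lie below the control arrays for GSK3A minus GSK3B, FBXW11 minus BTRC and TNKS minus TNKS2, and above them for AXIN1 minus AXIN2.

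Promoter sequence was searched for 8 of the 10 genes, in 10 windows, from RefSeq on GRCh38.p14. No window of BTRC or TNKS was searched, so the counts below do not cover them. The 250 bases before the annotated start were searched on both strands for CTTTGA and CTTTGT, core letters of the sites that the TCF/LEF partners of beta-catenin bind, and for CACGTG, the E-box that MYC binds. These motifs do not overlap one another. No window of the 8 genes held CTTTGA or CTTTGT, which 11.2% and 13.7% of 35116 promoter windows of the same length held. CACGTG, held by 6.34% of all windows, was found in 2, of which 1 belonged to APC and 1 to TNKS2. A match is a description of the letters and no evidence of binding, and its lack says nothing of the factors outside this window. The windows of the called FBXW11, GSK3A and TNKS2 and of GSK3B, the relative of GSK3A, are shown because these genes carry the unequal changes within pairs. The FBXW11 window lies at chr5:172006639-172006888 (minus strand), that of GSK3A at chr19:42242603-42242852 (minus strand), that of GSK3B at chr3:120094448-120094697 (minus strand) and that of TNKS2 at chr10:91798176-91798425 (plus strand). Each runs 5′ to 3′ towards the start, and capitals mark CACGTG, which began 47 bases before the start of TNKS2.
FBXW11 promoter: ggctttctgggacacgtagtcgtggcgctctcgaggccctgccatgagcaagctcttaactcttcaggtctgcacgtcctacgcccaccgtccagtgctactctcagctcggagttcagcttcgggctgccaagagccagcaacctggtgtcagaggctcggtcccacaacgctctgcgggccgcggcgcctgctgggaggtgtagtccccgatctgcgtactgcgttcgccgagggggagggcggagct
GSK3A promoter: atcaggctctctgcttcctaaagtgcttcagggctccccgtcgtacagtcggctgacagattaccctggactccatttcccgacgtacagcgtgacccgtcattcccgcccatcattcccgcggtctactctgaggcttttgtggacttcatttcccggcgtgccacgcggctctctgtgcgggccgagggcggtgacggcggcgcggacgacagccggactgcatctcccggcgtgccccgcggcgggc
GSK3B promoter: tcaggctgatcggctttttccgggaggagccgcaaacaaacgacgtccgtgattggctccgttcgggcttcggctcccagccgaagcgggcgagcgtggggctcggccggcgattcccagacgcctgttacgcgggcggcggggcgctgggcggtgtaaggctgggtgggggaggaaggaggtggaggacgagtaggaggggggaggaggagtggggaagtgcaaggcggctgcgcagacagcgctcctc
TNKS2 promoter: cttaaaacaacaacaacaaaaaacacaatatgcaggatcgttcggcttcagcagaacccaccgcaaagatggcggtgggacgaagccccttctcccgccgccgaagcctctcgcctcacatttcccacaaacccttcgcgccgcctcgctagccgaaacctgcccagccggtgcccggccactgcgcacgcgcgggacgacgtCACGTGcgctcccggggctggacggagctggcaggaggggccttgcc

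The share of G and C in the windows shown was 64.8% in FBXW11, 65.2% in GSK3A, 68.8% in GSK3B and 64.0% in TNKS2. Over all searched windows of the complex genes it ran from 38.0% in a CSNK1A1 window to 77.6% in AXIN1. The share over all promoter windows was not computed.

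Among all tested genes, the profile of FBXW11 over the 4 arrays was most like that of NSL1, a kinetochore gene, SMC1A, a cohesin subunit gene, and NAB2, a gene for a corepressor of EGR transcription factors. Likeness was the Euclidean distance between profiles centred on their own means, and it was 0.017, 0.030 and 0.036 log2 units. The log2 fold changes were -0.78 for NSL1, -0.79 for SMC1A and -0.79 for NAB2. With 4 arrays the distance mostly reflects the difference between the groups.

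The partners of the complex were followed in 45 further genes, of which 40 had a cluster with 1 symbol and 39 were tested. In limma 9 of these were called higher and 8 lower, CTNNB1 and AXIN2 included, and 22 were not called. The share called was 43.6%, against 30.3% of all tested genes, and the median log2 fold change was 0.035. The 30.3% includes genes of low level, and the share was larger above the 50th percentile of level, so no excess is read here or in the lists below.

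In the casein kinase 1 family, 3 of 5 tested genes fell and 1 rose, where 16.1% of all tested genes were called lower and 14.2% higher. CSNK1G1, a membrane-bound kinase of the gamma class that phosphorylates Wnt co-receptors, had levels of 8.08 and 8.17 log2 units with CTNNB1 siRNA, against 9.09 and 8.92 with control siRNA. The groups were far apart, and CSNK1G1 fell by 0.88 (SE 0.094, adjusted p 0.00187 in limma). Its relative CSNK1G2 fell by 0.48 (SE 0.10, adjusted p 0.0177 in limma), and that call ended with the replicate block (adjusted p 0.0617 in limma). CSNK1E, which encodes the epsilon kinase that acts on dishevelled, fell by 0.44 (SE 0.079, adjusted p 0.0105 in limma). CSNK1D, for the delta kinase, had a log2 fold change of 0.26 (adjusted p 0.0604 in limma), which reached an adjusted p of 0.0335 after another quantile normalization. CSNK1A1L, a retrotransposed copy of CSNK1A1, rose by 0.47 (SE 0.078, adjusted p 0.00796 in limma). Its sequence is so close to that of CSNK1A1 that an array may mix their signals, so neither value is certain to be of its own gene.

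Subunits of protein phosphatase 2A, which removes phosphates within the complex, included 4 of 10 genes that rose, none that fell and 6 that did not pass the test in limma. The share called was 40%, against 30.3% of all tested genes in either direction and 14.2% called higher. Of those 6, PPP2CA, for a catalytic subunit, had a negative log2 fold change of -0.21 and an unadjusted p of 0.0388. The median log2 fold change was 0.30. The rising genes were 3 regulatory B56 subunits, a class that binds APC and axin, and the scaffold subunit PPP2R1A. PPP2R5B had levels of 5.81 and 5.94 log2 units with CTNNB1 siRNA, against 5.14 and 4.96 with control siRNA, and PPP2R5A had 9.12 and 9.18 with CTNNB1 siRNA, against 8.28 and 8.53 with control siRNA. Neither gene's groups overlapped. PPP2R5B rose by 0.83 (SE 0.10, adjusted p 0.00277 in limma) and PPP2R5A by 0.75 (SE 0.11, adjusted p 0.00482 in limma). Taken as the mean of all its clusters, the rise of PPP2R5B was 0.50. Its control levels lay within the range of the leukocyte, fibroblast and endothelial markers, 2.76 to 5.51. They may be background, so the size of its rise is uncertain. PPP2R5C rose by 0.37 (SE 0.079, adjusted p 0.0192 in limma) and PPP2R1A by 0.35 (SE 0.082, adjusted p 0.0262 in limma), and the PPP2R1A call ended with arrays centred on their medians (adjusted p 0.0528 in limma). PPP2R1B and PPP2R5E had log2 fold changes of -0.005 and 0.020, and the sign of PPP2R1B turned under that centring and under another quantile normalization.

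The core of the SCF ligase, to which the F-box proteins dock, had 1 of 6 tested genes that rose and 1 that fell, a share of 33.3% called that lies near the 30.3% of all tested genes. CAND1, which exchanges F-box modules on the cullin, had levels of 9.84 and 10.15 log2 units with CTNNB1 siRNA, against 10.68 and 10.70 with control siRNA. The CTNNB1 siRNA arrays were lower and less alike, and CAND1 fell by 0.70 (SE 0.12, adjusted p 0.00869 in limma). UBE2R2, a ubiquitin-conjugating enzyme gene, rose by 0.46 (SE 0.083, adjusted p 0.0108 in limma). The cullin gene CUL1 and NEDD8, for the modifier that activates cullins, had log2 fold changes of 0.17 and 0.090 with adjusted p-values of 0.174 and 0.477 in limma.

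Of 7 genes of axin turnover, 2 rose and 1 fell, or 42.9% called, against 30.3% of all tested genes. USP34, a deubiquitinase gene that stabilises axin, had levels of 12.69 and 12.71 log2 units with CTNNB1 siRNA, against 12.41 and 12.24 with control siRNA, and rose by 0.38 (SE 0.090, adjusted p 0.0271 in limma). With the replicate block the USP34 call ended (adjusted p 0.0664 in limma). SMURF2, a ubiquitin ligase gene, rose by 0.34 (SE 0.092, adjusted p 0.0404 in limma), and that call ended under 4 of the 6 unblocked settings with all arrays and no fold minimum, with adjusted p-values up to 0.0769. SIAH1, whose product marks axin for degradation, fell by 0.33 (SE 0.078, adjusted p 0.0263 in limma), and median centring took its adjusted p in limma to 0.0504. The replicate block took it to 0.0536 in limma. SIAH2 and USP7 had log2 fold changes of -0.020 and -0.10 and were not called.

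Upstream of the complex, 1 of 7 tested genes was called, or 14.3%, against 30.3% of all tested genes. LRP6, the Wnt co-receptor whose phosphorylated tail draws axin to the membrane, had levels of 9.79 and 10.03 log2 units with CTNNB1 siRNA, against 10.82 and 10.73 with control siRNA. The groups did not overlap, and LRP6 fell by 0.87 (SE 0.11, adjusted p 0.00298 in limma). Its relative LRP5 had a positive log2 fold change of 0.42 and was not called (adjusted p 0.0909 in limma). DVL2 and DVL3, for dishevelled proteins, had log2 fold changes of -0.12 and 0.035, with adjusted p-values of 0.334 and 0.796 in limma. The axin and APC relatives gave AXIN2, described above, and APC2 at 0.035 (SE 0.084, adjusted p 0.820 in limma).

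JUP, which encodes plakoglobin, the relative of beta-catenin at cell junctions and itself bound by the complex, had levels of 10.51 and 10.89 log2 units with CTNNB1 siRNA, against 9.77 and 10.14 with control siRNA. The replicates of either group lay far apart, yet the groups did not overlap. JUP rose by 0.75 (SE 0.17, 95% interval 0.31 to 1.18, adjusted p 0.0248 in limma).

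**Figure D4:**
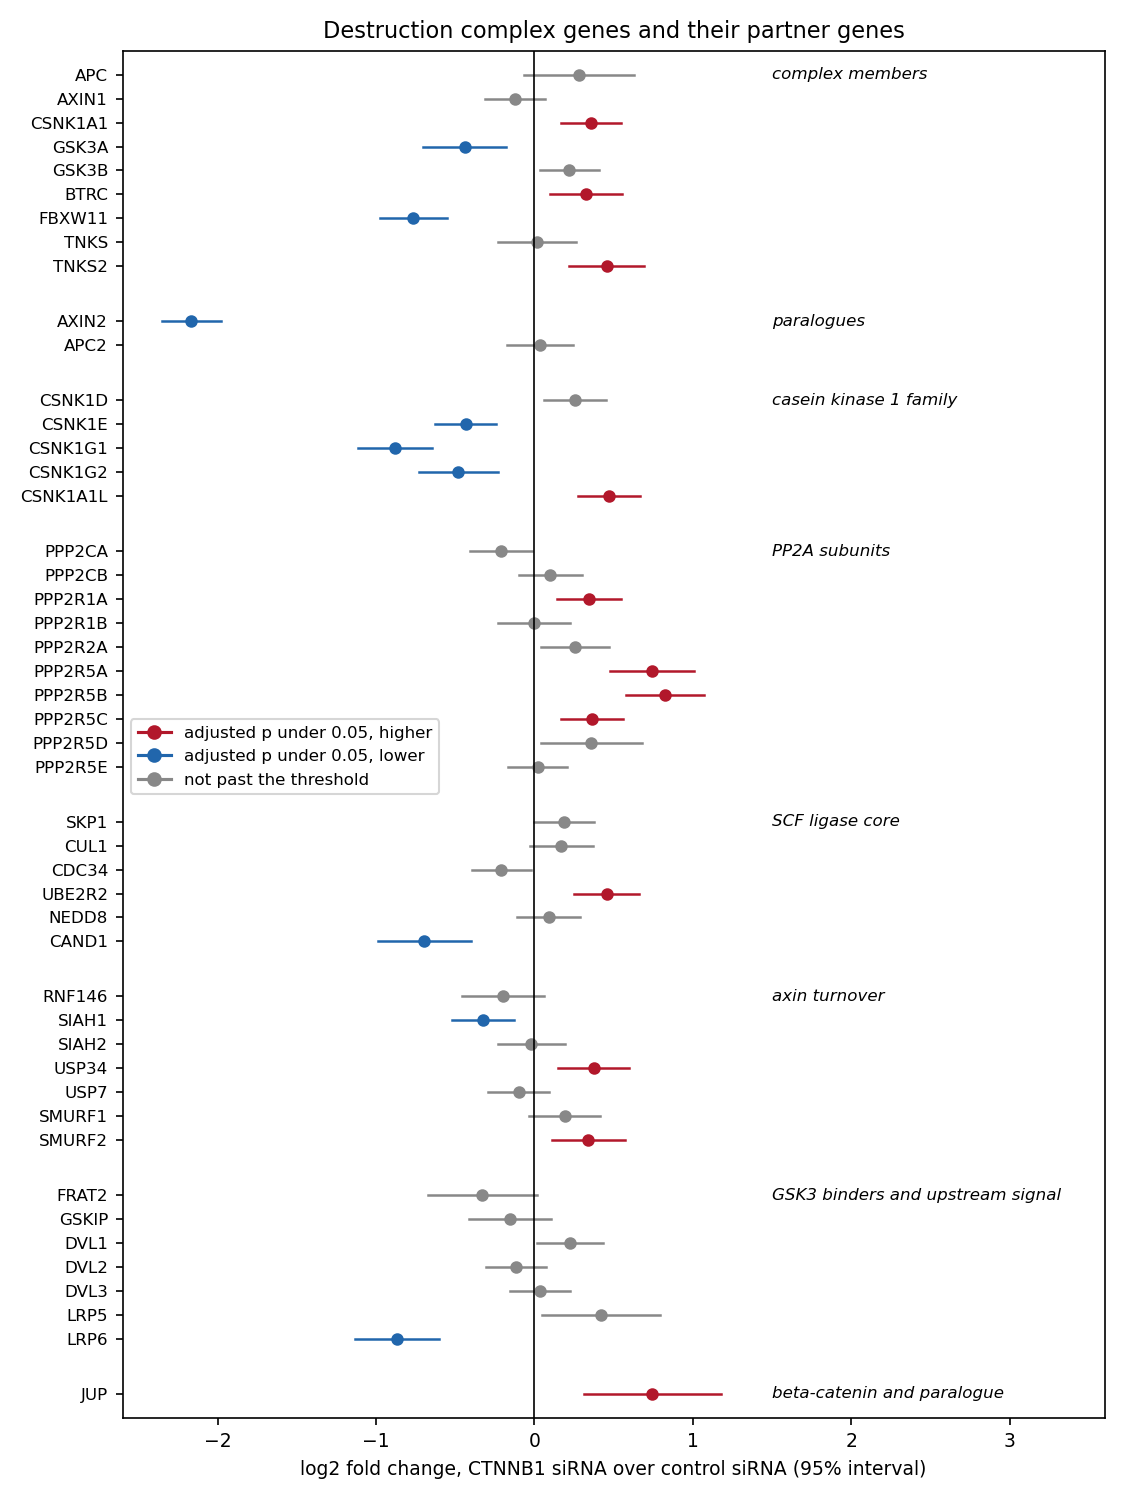
Log2 fold change, CTNNB1 siRNA over control siRNA, with its 95% interval from limma (horizontal axis), for 9 destruction complex genes and 38 tested partner genes, CTNNB1 itself left out. Red marks genes called higher, blue genes called lower and grey genes not past the threshold. AXIN2 at -2.17 lies far left of all others, and the PP2A subunits lie mostly right of 0.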

How the data were processed

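RNA from 4 HCT116 samples was measured on 1 array each. The deposited values are log2 levels per transcript cluster, made by the authors with Affymetrix Expression Console and RMA, per the submitters' processing notes. The sources used here name no RMA variant, version or genome build, so folds are stated on the deposited scale. No scanner files were used.

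Symbols came from the platform annotation (23781 of 67528 clusters carried 1 symbol, 1543 several) and were brought up to date with RefSeq's gene table (GRCh38.p14). Where a gene had several clusters, the one with the highest 4-array mean was used. Genes above the 30th percentile of that mean (15679) went into a limma fit (3.58.1, R 4.3.3), by group alone and 2-sided, with Benjamini-Hochberg adjustment over all of them and a threshold of 0.05. Moderation took the residual degrees of freedom to 5.66, where 2 came from the arrays. SE and 95% intervals are moderated. The fit was also run on simulated data in which few genes were changed, which checks the code and does not bear on the calls above. Figures used matplotlib 3.10.9.

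The complex genes and partner lists were chosen with earlier results of these data known. Named were all 10 complex genes, CTNNB1, AXIN2, up to 4 called genes per partner list with the largest change and 2 with the smallest, and the 3 profiles nearest to the gene with the largest change. PPP2CA and LRP5 were named as well, since their changes ran against the called genes of their lists. Alternatives were renormalization, median centring, other level filters, the mean of a gene's clusters, a variance trend, the replicate number as a block, a fold minimum of 1.5 and leaving out each array.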

Additional observations from a re-analysis of the deposited data

How the results depend on the processing

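With any 1 array left out, 0 genes, 0 complex genes and 0 partner genes were called higher or lower. Called with a fold of at least 1.5, there were 1168 genes higher and 1287 lower, and 0 complex genes higher and 1 lower. With arrays centred on their medians, 2 complex genes were called higher and 1 lower, of 1979 genes higher and 2114 lower in all. With the replicate block, 1 complex gene was called higher and 1 lower. Deviations of same-numbered arrays from their group means correlated with r = 0.271 across genes, but the labels tie the number to no shared culture, so it counts as a number only. Under the replicate block 1929 genes were called higher and 1969 lower, and calls ended for GSK3A, BTRC and TNKS2 (adjusted p 0.0771, 0.0536 and 0.0764 in limma) and for CSNK1G2, USP34, SMURF2 and SIAH1.

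Over the 9 complex genes and 7 settings that kept all arrays and set no fold minimum, 56 of 63 results kept direction and side of the threshold and 7 lost the call. None of these 63 changed sign, but only renormalization and median centring could alter a log2 fold change of these genes. The other settings left it the same and could move only the adjusted p. The cause was not tested. TNKS, not called, ranged from -0.09 to 0.12 over the fits without 1 array. Of the other genes, PPP2R1B changed sign to 0.025 under renormalization and 0.005 under median centring, and ranged from -0.08 to 0.07 without 1 array, as did APC2 from -0.03 to 0.10 and SIAH2 from -0.08 to 0.04. The 2 arrays per group limit what could be detected.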
